A study of Mus musculus with 22 samples.

Results

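Among the genes that neurons switch on when they are active, some encode effector proteins, several of which act at the synapse, instead of factors that regulate other genes. Under the name of activity-regulated synaptic effector genes, 7 are described here: Arc, Homer1, Nrn1, Pcsk1, Plk2, Rgs2 and Nedd9. They were chosen by name, as the rows of the deposited count table whose Ensembl identifiers belong to these symbols, and all 7 were found among its 53379 genes and passed the filter that left 40714 genes for testing. Neuronal activity raises calcium in the cell, which acts through kinases on transcription factors such as CREB, SRF and MEF2. These induce early genes whose products reshape the responding synapses. In the hippocampus such genes are known to follow seizures as well as learning.

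The mRNAseq data came from adult male C57/BL6N mice in which kainate, an agonist of glutamate receptors that causes status epilepticus, was injected above the right hippocampus. Sham mice received saline at the same place. The left hippocampi, contralateral to the injection, were collected after 24 h, those of several mice were pooled per sample, and their nuclei were separated by staining for NeuN, a protein of neuronal nuclei, into a NeuN+ (neurons) and a NeuN– (glia) fraction. The 11 libraries comprised 3 of kainate neurons, 3 of sham neurons, 3 of kainate glia and 2 of sham glia (replicates 1 and 3).

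All groups shared the strain, the sex and the time point, and the values describe only mice that had gone through convulsive seizures against sham mice. The NeuN– fraction was defined by the absence of staining, so it can hold vascular cells and some neurons besides glia. The sample titles and the methods of the study give the left side, whereas the deposited protocol text speaks of the right side.

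Total counts ranged from 12058875 to 45428465 per library. Kainate glia replicate 2 and sham glia replicate 1 started from less RNA than the rest (0.05 ng instead of 1 ng) and went through more PCR cycles (15 instead of 10). The 8 neuronal markers examined were all higher in NeuN+ than in NeuN– nuclei in both treatments, with a median log2 fold change of 2.08 in sham mice, and none was called in either kainate comparison at a false discovery rate (FDR) below 0.25 (with the replicate block described below, 2 in neurons and 1 in glia). Their summed level in NeuN– nuclei, 507 to 806 CPM (counts scaled to a common library total), was not negligible. In the groups with 3 libraries, replicate 1 differed more from the others than they did from each other. With 2 sham glia libraries it cannot be said which stood apart. In both treatments all 7 members were at their highest in replicate 1 of the 3 neuron libraries. The study sequenced its libraries on either a NextSeq or a HiSeq instrument, with different read lengths, and its pools differed in their number of mice. These were not matched to single libraries here.

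Of the 7 genes, 5 lie on chromosome 13 of the mouse genome (mm10), namely Nrn1 (36725361 to 36735131, minus strand), Nedd9 (41309581 to 41487362, minus strand), Pcsk1 (75089826 to 75134861, plus strand), Homer1 (93299635 to 93405129, plus strand) and Plk2 (110395046 to 110400844, plus strand). Arc lies on chromosome 15 (74669083 to 74672570, minus strand) and Rgs2 on chromosome 1 (143999338 to 144004161, minus strand). All are protein-coding. The exons of Nrn1 share 501 bp with exons of Fars2 on the opposite strand, and those of Nedd9 share 62 bp with the antisense gene Gm32401. The libraries did not mark the strand, so reads in these stretches cannot be assigned to one gene of the pair. The exons of the other 5 members overlap no other annotated gene.

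The promoters of Pcsk1 and Plk2 hold the complete cyclic AMP response element (CRE), the sequence that CREB binds, and that of Rgs2 and 1 of the 2 of Homer1 hold only its conserved end. These 4 are shown because they hold this sequence, and the second promoter of Homer1 and that of Nedd9, which hold none, are left out. The RefSeq promoter table (GRCm38.p6) held 6 promoters of 5 members, Homer1 with 2 of them. The stretches below are the 250 bases before the annotated start, written 5′ to 3′ on the strand of the gene, with capitals marking TGACG, the conserved end of the CRE, on either strand.
Pcsk1 (chr13:75089607-75089856, plus strand): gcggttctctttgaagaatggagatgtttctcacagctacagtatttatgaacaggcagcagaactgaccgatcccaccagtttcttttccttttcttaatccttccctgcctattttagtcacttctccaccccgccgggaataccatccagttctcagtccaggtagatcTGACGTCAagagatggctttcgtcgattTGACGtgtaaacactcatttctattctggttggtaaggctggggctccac
Plk2 (chr13:110394794-110395043, plus strand): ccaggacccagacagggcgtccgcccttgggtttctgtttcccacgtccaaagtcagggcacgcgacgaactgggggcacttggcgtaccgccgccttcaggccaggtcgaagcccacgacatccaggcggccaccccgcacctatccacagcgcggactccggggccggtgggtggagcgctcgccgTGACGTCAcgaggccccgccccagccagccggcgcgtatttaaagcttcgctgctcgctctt
Homer1 (chr13:93303507-93303756, plus strand): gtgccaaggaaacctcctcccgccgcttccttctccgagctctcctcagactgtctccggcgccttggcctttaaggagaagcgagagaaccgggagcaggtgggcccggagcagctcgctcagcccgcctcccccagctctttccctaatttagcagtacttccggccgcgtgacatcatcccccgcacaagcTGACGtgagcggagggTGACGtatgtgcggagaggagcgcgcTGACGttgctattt
Rgs2 (chr1:144004150-144004399, minus strand): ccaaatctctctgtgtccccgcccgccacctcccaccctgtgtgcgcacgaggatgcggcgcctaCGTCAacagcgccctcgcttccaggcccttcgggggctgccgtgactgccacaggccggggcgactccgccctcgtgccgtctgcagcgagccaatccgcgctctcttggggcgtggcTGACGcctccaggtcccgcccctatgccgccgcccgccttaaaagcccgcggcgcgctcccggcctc

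The complete palindrome TGACGTCA began 78 bases before the start in Pcsk1 and 62 bases before it in Plk2, and these 2 of the 6 member promoters held it against 1.55% of the 32851 promoters of the same length. TGACG, which lies inside the palindrome on both strands, was found in 4 of the 6 promoters against 17.8% of all. Homer1 had it 3 times within 56 bases of the start without the complete palindrome, and Rgs2 had it once on each strand. The second promoter of Homer1 and that of Nedd9 held neither. The EGR motif GCGNGGGCG was matched once, in Rgs2 (4.7% of all promoters), while AP-1 (TGANTCA, 6.75%), the CArG box bound by SRF (1.47%) and the MEF2 motif (2.92%) were matched in 0 of the 6. All motifs were searched on both strands, and a match describes letters in this window only.

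The first comparison asked how kainate changed these genes in neurons. All 7 members had higher mean levels in kainate than in sham neurons. Arc and Nedd9 passed the FDR threshold of 0.25, with 4.45-fold and 3.24-fold higher levels. These 2 of 7 stand beside 0.157% of all tested genes called higher. With the replicate number as a block, all 7 were upregulated, beside 3.19% of all genes. This block pairs kainate and sham pools of different mice. In a fit of the neuron libraries alone, the form the study used, 5 were called (Arc, Nedd9, Homer1, Rgs2 and Plk2), beside 324 of 30259 genes. The study's own list of genes upregulated in these neurons held Arc, Homer1 and Nedd9 and no other member. Its filters kept fewer genes. The median log2 fold change of the members was 1.61, against -0.015 over all genes.

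Arc, a cytoskeletal protein of dendrites that promotes the internalization of AMPA receptors, reached 816, 573 and 567 CPM in kainate neurons. In sham neurons it had 221, 103 and 115 CPM. The lowest kainate library was thus well above the highest sham library. Its log2 fold change was 2.16, with a standard error (SE) of 0.43 and an FDR of 0.167 in edgeR, and 2.22 with the block (SE 0.19, FDR = 4.8e-13).

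Homer1 encodes a scaffold of the postsynaptic density that ties metabotropic glutamate receptors to calcium stores, and seizure activity is known to induce its short form Homer1a. It stood at 650, 566 and 280 CPM in kainate neurons. The sham values were 200, 141 and 148 CPM. The groups did not overlap, although kainate replicate 3 was much closer to the sham libraries than the other two. The log2 fold change of 1.61 (SE 0.40) did not pass the threshold (FDR = 0.387), and with the block it was 1.54 (FDR = 7.0e-08). The counts are per gene and do not separate the short from the long forms.

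Among the secreted or membrane-anchored products, Nrn1 (neuritin, which promotes the growth of dendrites and axons) had 200, 109 and 95.5 CPM in kainate neurons. In sham neurons its levels were 102, 25.7 and 31.8 CPM. Sham replicate 1 lay above kainate replicate 3, so the groups overlapped. The log2 fold change was 1.35 (SE 0.50), not past the threshold, and with the block 1.55 (FDR = 3.3e-07).

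Pcsk1, the convertase PC1/3 that cleaves precursors of neuropeptides and hormones, stood at 141, 56.7 and 61.2 CPM after kainate. The sham libraries held 63.0, 21.2 and 13.9 CPM. These groups overlapped too, since sham replicate 1 was above kainate replicates 2 and 3. The log2 fold change was 1.40 (SE 0.58), which did not pass, and 1.57 with the block (FDR = 7.7e-07).

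Of the intracellular signalling proteins, Plk2, a kinase that weakens overactive synapses by the removal of the spine protein SPAR, had 1109, 714 and 558 CPM in kainate neurons. Its sham values of 520, 283 and 264 CPM were all lower, the highest of them only just. The log2 fold change was the smallest of the 7, 1.16 (SE 0.40), and did not pass, whereas it did with the block (1.17, FDR = 6.8e-06).

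Rgs2, which ends signalling through G proteins of the Gq class, had 84.4, 47.8 and 66.8 CPM in kainate neurons. The sham libraries gave 34.8, 17.9 and 12.6 CPM, without overlap. Its log2 fold change of 1.61 (SE 0.49) had an FDR of 0.859 and, with the block, one of 3.0e-07.

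Nedd9, a docking protein of integrin and focal adhesion signalling, had the tightest groups. Its levels were 49.4, 48.7 and 37.3 CPM in kainate neurons and 14.8, 14.2 and 12.8 CPM in sham neurons. Here replicate 1 did not stand apart from replicate 2 in either treatment. The log2 fold change was 1.70 (SE 0.30, FDR = 0.121), and 1.69 with the block (FDR = 6.1e-08).

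**Figure D1:**
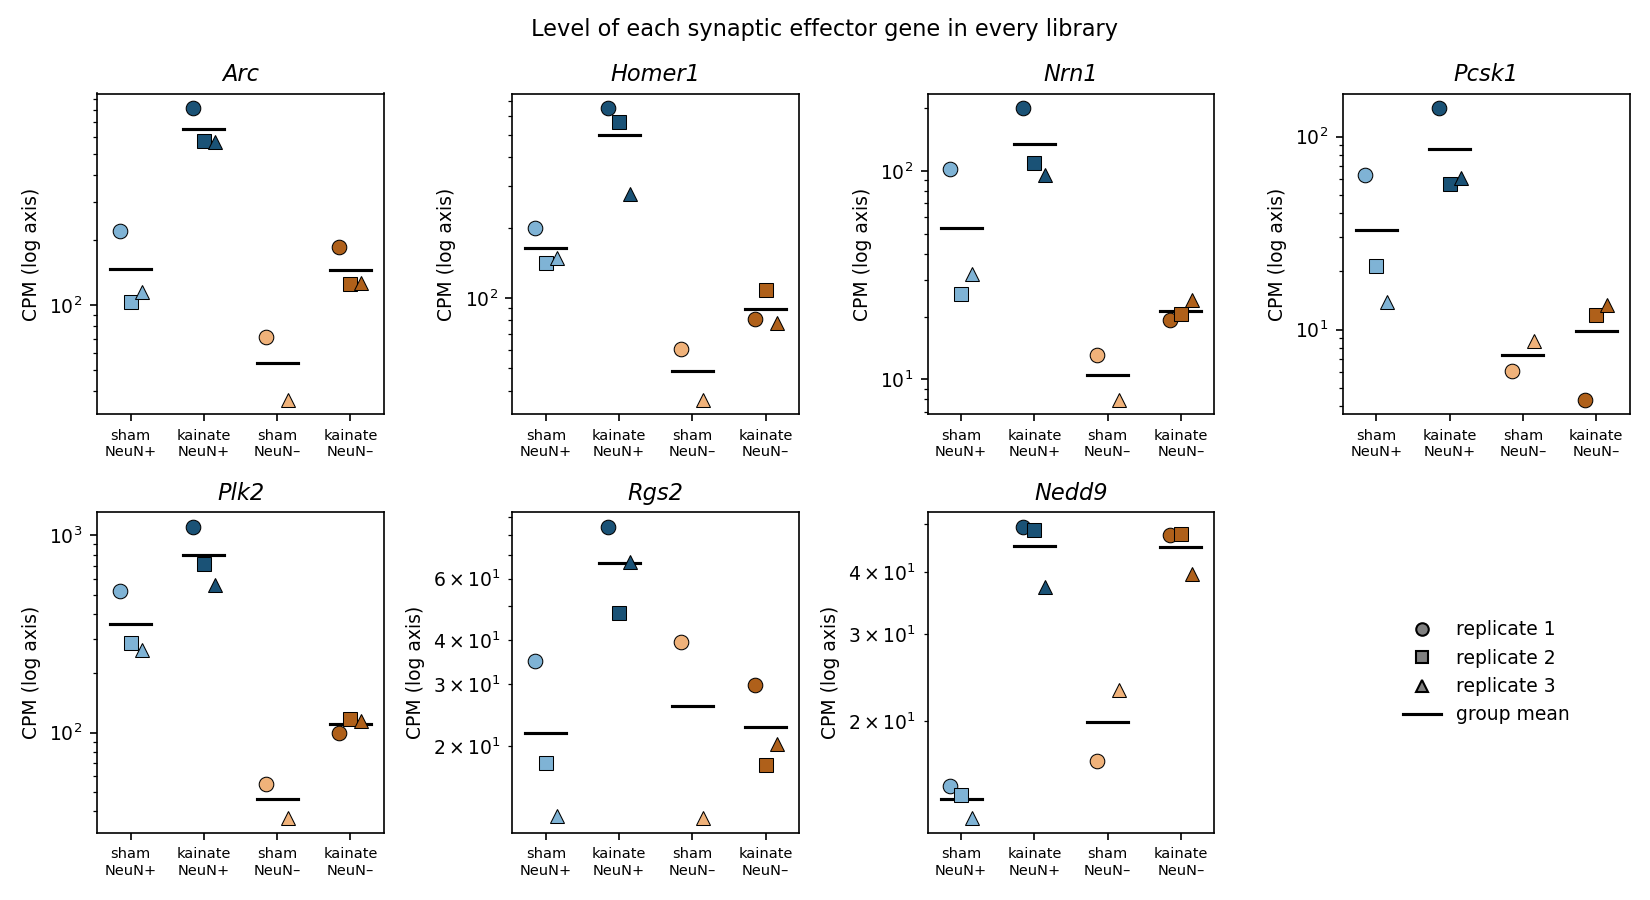
Normalized level of each of the 7 genes (CPM, log axis) in the 11 libraries, by group; the symbol shows the replicate number and the line the group mean. Kainate neurons lie above sham neurons without overlap for Arc, Homer1, Plk2, Rgs2 and Nedd9, and Nedd9 reaches the same level in NeuN+ and NeuN– nuclei of kainate mice.

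In 5 of the 7 members every kainate neuron library was above every sham neuron library, against 4.26% of all tested genes. All 7 had an unadjusted p below 0.05 in this direction, against 1.46% of all. The calls of Arc and Nedd9, like those over all genes, depended on single libraries. With any of 5 libraries left out (replicates 1 and 2 of kainate neurons, replicates 2 and 3 of sham neurons, and replicate 2 of kainate glia), 0 members were called, and without replicate 3 of kainate neurons 1 was. In these 6 fits 5 to 30 genes of the whole table were called higher, against 64 with every library. Nedd9 also missed the threshold without replicate 1 of sham neurons (FDR = 0.296). Where they missed it, the log2 fold changes were 1.96 to 2.25 for Arc and 1.63 to 1.74 for Nedd9, against 2.16 and 1.70 with every library. Without the 4 libraries of replicate 1, all 7 were called, at log2 fold changes from 1.14 (Plk2) to 2.31 (Arc), and the fit then called 637 of 45056 genes higher.

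Within a replicate number the direction did not vary. The ratio of the kainate to the sham neuron library was above 1 in 21 of 21 cases, from 1.89 (Homer1, replicate 3) to 5.56 (Arc, replicate 2). Of all tested genes, 15.7% had all 3 ratios above 1. For the members whose groups did not overlap, the ratios exceed 1 under any pairing, and each pair compares pools of different mice. Arc rose 3.69-, 5.56- and 4.93-fold in replicates 1 to 3, and Nedd9 3.33-, 3.43- and 2.92-fold. For Nrn1 and Pcsk1, whose groups overlapped, the ratios were 1.96, 4.25 and 3.00 and 2.23, 2.67 and 4.40.

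**Figure D2:**
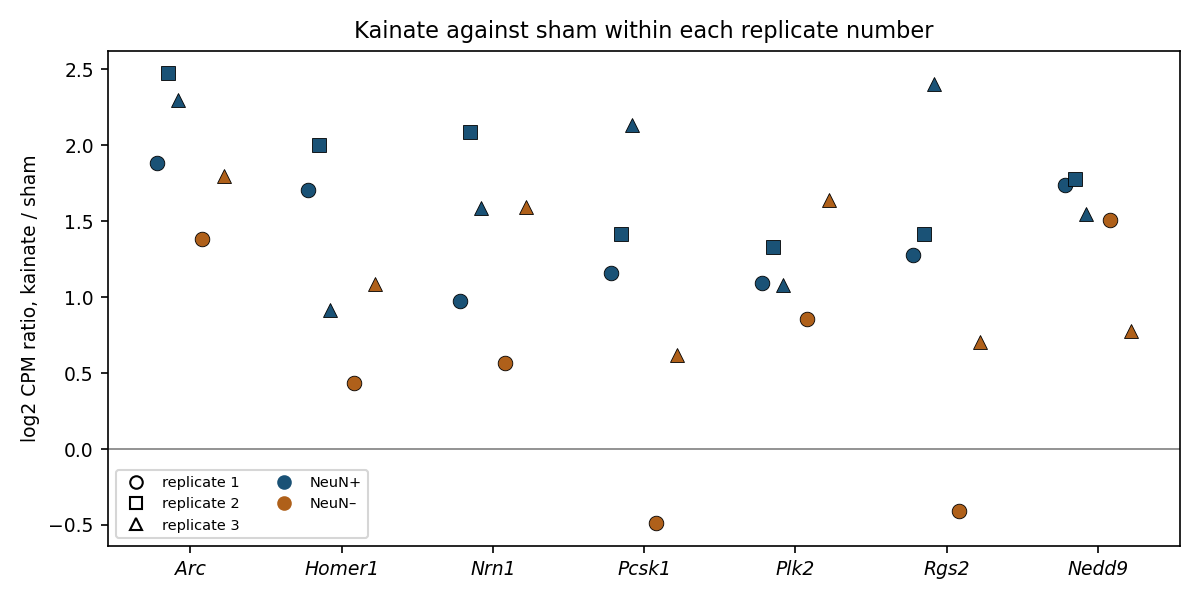
Ratio of the kainate to the sham library of the same replicate number (log2 of CPM), for NeuN+ nuclei (blue, replicates 1 to 3) and NeuN– nuclei (orange, replicates 1 and 3). All 21 neuronal ratios lie above 0 on this scale; in glia, Pcsk1 and Rgs2 fall below 0 in replicate 1.

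Markers of other cells also differed between these neuron libraries. Of 8 astrocyte markers 0 were called, their median log2 fold change was 0.65, and their summed level was 291 to 438 CPM in kainate and 205 to 277 CPM in sham neurons. With the block, 4 of them rose, namely Gfap (log2 fold change 1.78), Aqp4 (1.40), Aldh1l1 (0.73) and Slc1a2 (0.71), and 2 fell, namely Slc1a3 (-0.65) and Gja1 (-0.63). None of the 8 was at 0 in every library. Of 5 markers of dentate granule cells, 0 were called and 4 fell with the block, the sums being 248 to 503 CPM in kainate and 436 to 814 CPM in sham neurons. Of 8 interneuron markers, 0 were called, all 8 had positive log2 fold changes with a median of 0.33, and 3 rose with the block (Npy, Gad1 and Gad2). Their summed levels overlapped, at 410 to 870 CPM in kainate and 221 to 741 CPM in sham neurons. Of all 40714 genes, the block called 1299 higher and 773 lower in neurons. The part of the marker shifts in the members' changes was not tested.

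The second comparison asked the same of glia. No member was called among NeuN– nuclei, where 0.0933% of all genes were called higher, and 3 (Arc, Plk2 and Nedd9) had an unadjusted p below 0.05, beside 1.35% of all genes. DESeq2's Wald test called 2, Arc and Nedd9, and 191 of the 40714 genes higher, against 38 in edgeR. With the block, which rests on replicates 1 and 3 because kainate glia replicate 2 has no sham library of its number, Arc, Homer1, Nrn1, Plk2 and Nedd9 were upregulated, 5 of 7 beside 2.93% of all genes. Without the 4 libraries of replicate 1, Arc, Nrn1 and Plk2 were called, in a fit that called 430 of 45056 genes higher. The median log2 fold change of the members was 1.02, against 0.023 over all genes. In sorted pools, more cells with the transcript and more transcript per cell cannot be told apart.

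Arc stood at 185, 125 and 127 CPM in the 3 kainate glia libraries and at 71.2 and 36.6 CPM in the 2 sham glia libraries. The kainate values were all higher, and the log2 fold change was 1.44 (SE 0.48), or 1.59 with the block (FDR = 1.5e-06). Plk2 had 99.7, 117 and 115 CPM after kainate and 55.0 and 36.8 CPM in sham glia. Its change, 1.26 (SE 0.46), was about the size seen in neurons, and with the block it was 1.25 (FDR = 1.7e-04).

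Nedd9 had 47.5, 47.7 and 39.6 CPM in kainate glia against 16.7 and 23.2 CPM in sham glia, and its log2 change was 1.17 (SE 0.34; FDR = 0.0042 with the block). Homer1 levels were 81.5, 108 and 77.8 CPM against 60.2 and 36.6 CPM (0.88, SE 0.45; FDR = 0.071 with the block). Nrn1 levels were 19.3, 20.6 and 24.1 CPM against 13.04 and 7.98 CPM (1.02, SE 0.57; FDR = 0.0095 with the block). In these 5 genes, Arc, Plk2, Nedd9, Homer1 and Nrn1, all kainate glia libraries were above both sham libraries, a pattern that 4.7% of all tested genes showed.

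Pcsk1 and Rgs2 did not follow. Pcsk1 was low, at 4.3, 11.9 and 13.3 CPM in kainate glia and 6.1 and 8.7 CPM in sham glia. The groups overlapped, and the log2 fold change was 0.42 (SE 0.66; 0.12 and FDR = 0.996 with the block). Rgs2 had 29.9, 17.7 and 20.3 CPM against 39.6 and 12.4 CPM, the 2 sham libraries being the extremes. Its log2 fold change of -0.20 (SE 0.53) became 0.14 with the block and 1.03 without both libraries of low RNA input, one of which, sham glia replicate 1, held the value of 39.6 CPM; it was called in none of these fits.

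**Figure D3:**
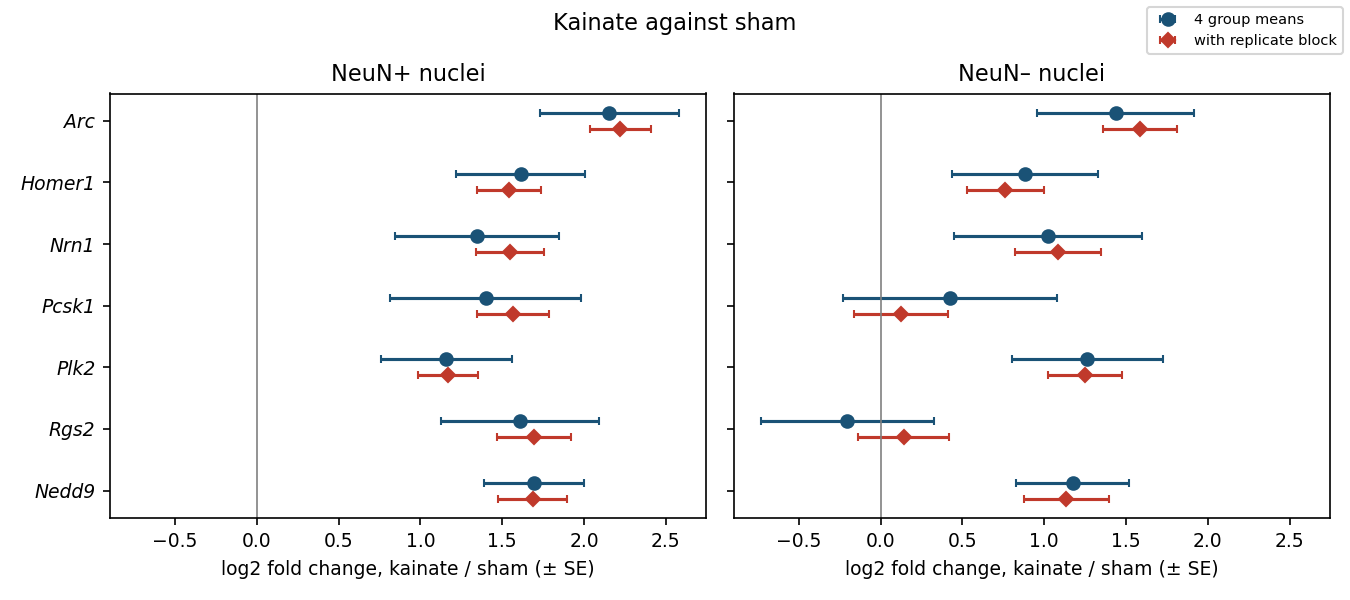
Log2 fold change of kainate against sham (± standard error) in NeuN+ (left) and NeuN– nuclei (right), from the fit of the 4 group means (circles) and from the fit with the replicate number as a block (diamonds). In neurons all 7 genes lie above 1, from 1.16 to 2.16; in glia Pcsk1 (0.42) and Rgs2 (-0.20) lie around 0 within 1 standard error.

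Neuronal transcripts were measurable in the NeuN– libraries, and levels of glial markers varied among them. The 8 neuronal markers had sums of 581 to 806 CPM in kainate and 507 to 734 CPM in sham glia, a median log2 fold change of 0.083, and 0 calls (1 with the block, Gad1). The summed levels of 6 oligodendrocyte markers ranged from 4852 to 27163 CPM in kainate and from 8752 to 38943 CPM in sham glia. Those of 8 astrocyte markers were 658 to 3409 and 1190 to 4488 CPM, and those of 6 microglial markers 651 to 1877 and 656 to 3561 CPM. The respective median log2 fold changes were -0.79, -1.03 and -0.74, again with 0 calls in the fit of group means. With the block, which gave the members' calls in glia, 4 of the 6 oligodendrocyte markers fell, 5 of the 8 astrocyte markers fell and 1 (Gfap) rose, 2 of the 6 microglial markers fell, and all 4 markers of oligodendrocyte precursors fell. The precursor markers summed to 327 to 1574 CPM in kainate and 866 to 2724 CPM in sham glia. Of all 40714 genes, the block called 1194 higher and 1163 lower in glia. No marker of these lists was at 0 in every library. Their part in the members' changes in glia was not tested.

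The kainate effects in neurons and glia were compared through the interaction of cell type and treatment. No member passed it in edgeR (0 in DESeq2's Wald test, and 1, Rgs2, at an unadjusted p below 0.05, as had 0.447% of all genes in this direction), while 0.00246% of all genes (1 gene) did in the direction of a larger effect in neurons. The difference was largest for Rgs2, at 1.81 on the log2 scale (SE 0.71, unadjusted p = 0.023 in edgeR), followed by Pcsk1 (0.97), Homer1 (0.73) and Arc (0.72). For Plk2 it was -0.11 (SE 0.59). With the block, Rgs2 (1.55, SE 0.36, FDR = 0.013) and Pcsk1 (1.44, SE 0.36, FDR = 0.031) were called, 2 of 7 beside 1.23% of all genes. For Rgs2 the difference shrank to 0.58 without both libraries of low RNA input. The remaining 5 members had differences from -0.0795 to 0.78 with the block, none called. This block does not pair the neuron and glia libraries of a pool.

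The fractions were also compared within each treatment. In sham mice, 5 of 7 members were higher in NeuN+ than in NeuN– nuclei, beside 9.11% of all genes, and the same 5 with the pool as a block, beside 18.3%. The pool block for sham mice rests on replicates 1 and 3. The log2 fold change was 2.95 for Plk2 (SE 0.50, FDR = 0.0024), 2.34 for Nrn1, 2.14 for Pcsk1, 1.75 for Homer1 and 1.44 for Arc (FDR = 0.089). For the 8 neuronal markers it ranged from 1.51 to 3.80, so that 4 of these 5 members lay within that range. The median over all genes was -0.37, which sets the level for all these values. Without sham neurons replicate 1, 3 members were called, since Arc (1.02) and Pcsk1 (1.25) no longer passed, and the calls over all genes fell from 3708 of 40714 to 2658 of 40683. Arc also missed the threshold without sham glia replicate 3 (1.04, FDR = 0.293), and Pcsk1 without both libraries of low RNA input (1.95, FDR = 0.266).

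Rgs2 and Nedd9 were not higher in the NeuN+ nuclei of sham mice. Rgs2 had a log2 fold change of -0.26 (SE 0.53), which became 0.84 without both libraries of low RNA input and passed in neither case. Nedd9 had a log2 fold change of -0.52 (SE 0.33), with all 3 NeuN+ libraries below both NeuN– libraries. It did not pass in the fit of group means but did with the block (FDR = 0.241), which called 15.7% of all genes lower. It was also called lower in 4 other settings. DESeq2's Wald test was one of them (FDR = 0.171), and it called 4216 of 40714 genes lower.

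After kainate, 6 of 7 members were higher in neurons than in glia, beside 11.3% of all genes, and the same 6 with the block, beside 21.4%. Pcsk1 had the largest log2 fold change (3.12, SE 0.62, FDR = 0.0048), followed by Plk2 (2.85), Nrn1 (2.66), Homer1 (2.48), Arc (2.16) and Rgs2 (1.55, FDR = 0.060). Rgs2 passed in this treatment and not in sham mice, and the test of that difference is the interaction given above. For Nedd9, mean levels were 45.1 ± 6.80 CPM (SD, n = 3) in kainate neurons and 44.96 ± 4.60 CPM (n = 3) in kainate glia, and the log2 fold change of 0.0056 (SE 0.30) changed sign between fits.

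**Figure D4:**
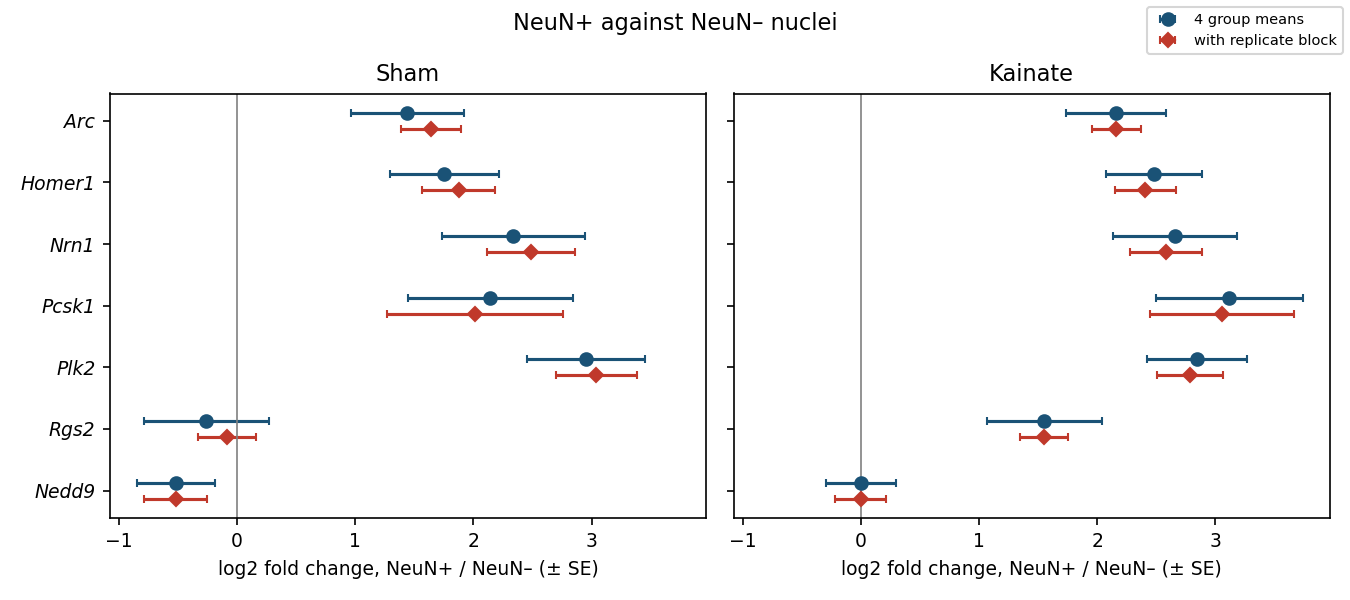
Log2 fold change of NeuN+ against NeuN– nuclei (± standard error) in sham (left) and kainate mice (right), from the fit of group means (circles) and with the pool as a block (diamonds). Plk2, Nrn1, Pcsk1, Homer1 and Arc lie above 1 in both panels, Rgs2 moves from -0.26 to 1.55, and Nedd9 stays at or below 0.0056.

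Levels of different genes were compared per kilobase of annotated exon. In sham neurons Plk2 was highest (79.2 ± 31.7 CPM per kb, SD, n = 3), then Arc (47.9 ± 21.3) and Nrn1 (23.7 ± 18.9), in this order within each library although the ranges of neighbours overlapped. Homer1 had 13.6 ± 2.66 and was not ordered against Nrn1, since it was the higher of them in replicate 2. Rgs2 followed at 6.01 ± 3.20 and Pcsk1 at 5.84 ± 4.73, and these 2 could not be ordered either. Nedd9 was lowest, at 2.18 ± 0.17. In kainate neurons Arc (213 ± 46.5) stood above Plk2 (177 ± 63.2) within each library although their ranges overlapped, and Nedd9 stayed last at 7.08 ± 1.07.

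In sham glia the order began with Arc (17.6 ± 8.00 CPM per kb, n = 2) and Plk2 (10.2 ± 2.87), Arc being higher in both libraries although the ranges overlapped, and ended with Pcsk1 (1.32 ± 0.33). In kainate glia Arc (47.7 ± 11.2, n = 3) was above Plk2 (24.6 ± 2.05) in every library, and Homer1 (7.45 ± 1.40), Nedd9 (7.05 ± 0.72) and Rgs2 (6.23 ± 1.77) overlapped. The Arc level per kilobase in kainate glia was close to that in sham neurons (47.9).

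Across the 11 libraries, the members varied together to different degrees. Without Nedd9, the Pearson correlations of log2 CPM lay between 0.64 (Plk2 and Rgs2) and 0.97 (Nrn1 and Plk2) in 15 pairs. Nedd9 was correlated with the others at 0.17 to 0.54. These values describe libraries that share their cell type, treatment and pool, and no test was made.

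Among 14765 genes with a mean of at least 5 CPM, those with the most similar pattern to a member were picked by the same correlation. For Arc they were Nptx2 (0.98), a pentraxin that clusters AMPA receptors, the neuropeptide gene Npy and the transcription factor gene Klf10. Nrn1 was matched by Crhbp, the granin gene Scg2 and the neurotrophin gene Bdnf (0.98 each). Plk2 was closest to Ptprn (0.99), a protein of dense-core vesicles, then to Crtac1 and Cabp7. Homer1 was closest to Rhbdl3 (0.98), Cabp7 and the reelin receptor gene Lrp8, and Pcsk1 to Wnt2 (0.99), Zfp804a and Bglap3. The nearest genes to Rgs2 were Zfp180, Baalc and Zbed5 (0.95 each), and those to Nedd9 were Sulf1 (0.98) and the immediate early factors Egr2 (0.94) and Atf3 (0.93).

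Related genes were examined by lists. Of the other members of the same families (Homer, PCSK, PLK, RGS and CAS proteins), 27 of 28 were tested and 1 was called in neurons, Rgs4, another inhibitor of G protein signalling. Its level was 456 ± 63.5 CPM in kainate and 68.8 ± 41.6 CPM in sham neurons (SD, n = 3 each), a log2 fold change of 2.73 (SE 0.48, FDR = 0.108). It was not called without replicate 2 of kainate neurons or replicate 2 or 3 of sham neurons, and without the 4 libraries of replicate 1 the list had 6 calls. In neurons the list had 4 calls with DESeq2's Wald test and 4 in the separate fit, in fits that called 292 of 40714 and 324 of 30259 genes higher. None was called in glia (1 with the Wald test). With the block, 9 rose and 1 fell in neurons, and 5 rose and 3 fell in glia. The gene that fell in neurons was Plk5 (13.7 against 88.2 CPM on average, -2.93 with the block), while Homer2 (-0.089) and Homer3 (-0.022) stayed close to the median of all genes in the fit of group means. The median log2 fold change of the list was 0.17 in neurons and 0.054 in glia.

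The 29 binding partners and substrates, such as Shank and Dlg scaffolds, glutamate receptors and CaMKII, gave 0 calls in either cell type, in edgeR and in DESeq2, and 0 had an unadjusted p below 0.05. Their median log2 fold change was -0.24 in neurons and -0.087 in glia. Camk2a, a subunit of CaMKII, and Itpr1, the calcium channel that Homer1 ties to glutamate receptors, had the smallest p in neurons, at -0.75 and -0.57. With the block 5 fell in neurons, Camk2a (-0.80) and Itpr1 (-0.60) among them, and 1 rose, and 2 fell in glia. Of all 40714 genes, the block called 773 lower in neurons and 1163 lower in glia.

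Of 22 other activity-regulated effectors, 3 were upregulated in neurons and 0 in glia. These were Nptx2 (351 against 31.8 CPM on average, log2 fold change 3.46, FDR = 0.057), Inhba, the activin subunit gene (191 against 17.2 CPM, 3.47, FDR = 0.068), and the kinase gene Sik1 (52.4 against 12.7 CPM, 2.05, FDR = 0.123). With the block, 18 rose in neurons and 15 in glia, and none fell. In neurons 11 were called with DESeq2's Wald test, 11 in the separate fit and 10 among genes with an NCBI Gene ID. These fits called 292, 324 and 185 genes of the whole table higher. The 3 calls in neurons became 0 without replicate 2 or 3 of sham neurons, 8 without replicate 3 of sham glia and 13 without the 4 libraries of replicate 1. The 0 in glia became 1 without replicate 1 of sham neurons, 3 among genes with an NCBI Gene ID, 5 without replicate 3 of sham glia, 8 without the 4 libraries of replicate 1 and 9 in DESeq2's Wald test, and 12 had an unadjusted p below 0.05. The list medians were 1.45 in neurons and 1.34 in glia.

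Of 20 immediate early transcription factor genes, 5 rose in neurons and 5 in glia, and with the block 18 and 17. In the separate fits per cell type 12 rose in neurons and 0 in glia, where 0 of 39857 genes passed. The study, which also fitted glia separately but kept fewer genes, did list upregulated genes in glia at this threshold. Fos, Atf3, Egr1 and Junb were among them. The reason for this difference was not tested. With single libraries left out, the calls ranged from 0 (without replicate 2 or 3 of sham neurons) to 8 (without either sham glia library) in neurons, in fits that called 5 genes and 153 to 160 genes higher. In glia they ranged from 0 (without sham glia replicate 1) to 12 (without sham glia replicate 3), in fits that called 1 of 44429 and 2359 of 42640 genes higher. In the latter the median log2 fold change over all genes was 0.76. In neurons the 4 with the smallest p were Atf3 (3.41), Fosb (3.30), Ier2 (2.24) and Fos (3.09). In glia they were Fos (5.67), Atf3 (4.03), Egr1 (4.21) and Junb (3.78). The list median was 1.73 in neurons and 2.20 in glia, so the members' medians of 1.61 and 1.02 were below it in both. Of 13 genes for CREB, SRF, MEF2 and their cofactors, 0 were called in edgeR, and 1 in neurons in DESeq2. Creb3l1 had the smallest p in neurons (1.42, SE 0.44), followed by Mrtfb (-0.48), and with the block 1 rose and 1 fell in neurons and 1 fell in glia.

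**Figure D5:**
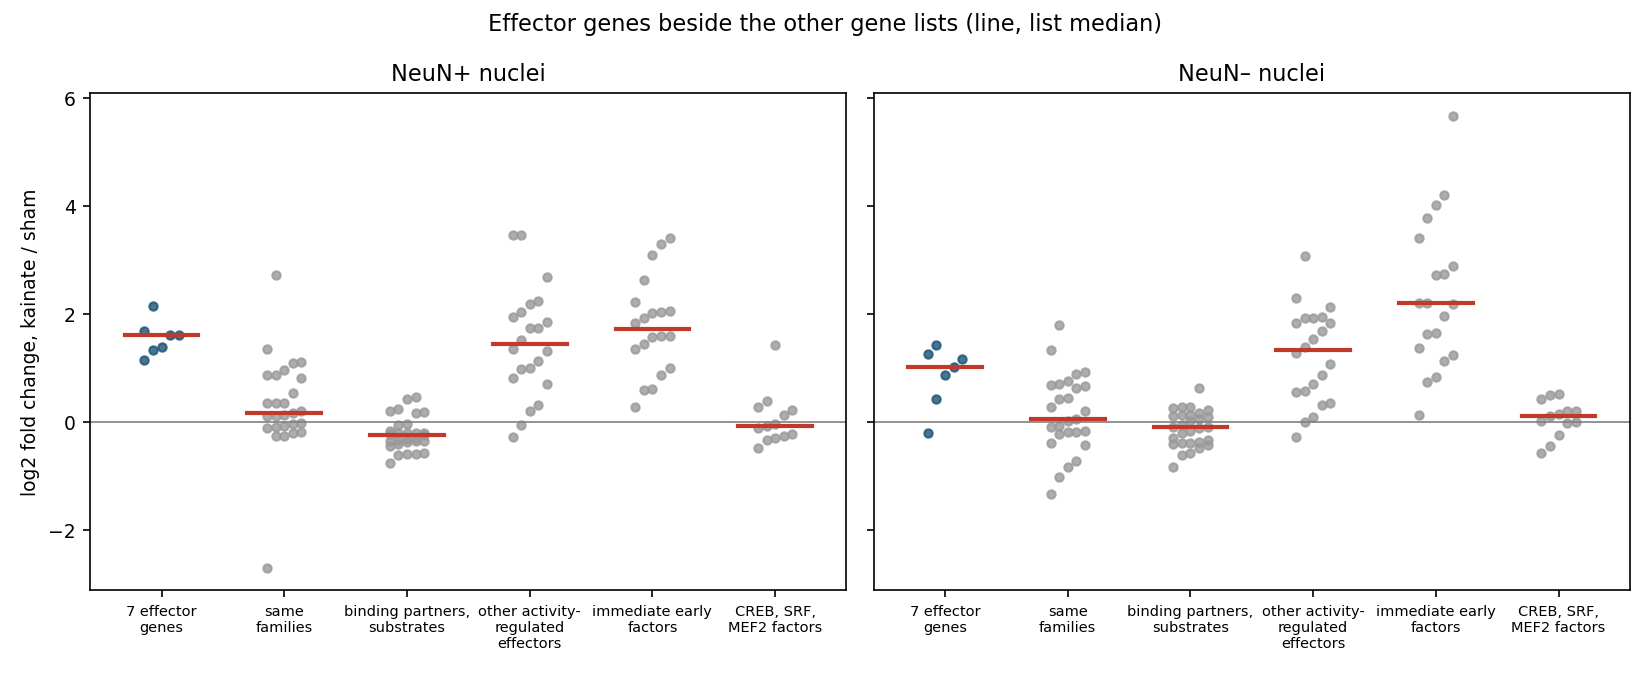
Log2 fold change of kainate against sham for the 7 effector genes (blue) and for the genes of 5 other lists (grey), in NeuN+ (left) and NeuN– nuclei (right); each point is a gene and the line the list median. The medians are 1.61, 0.17, -0.24, 1.45, 1.73 and -0.074 in neurons and 1.02, 0.054, -0.087, 1.34, 2.20 and 0.13 in glia, in the order shown.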

How the data were processed

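Nuclei of pooled hippocampi were profiled by oligo(dT)-primed, unstranded mRNAseq without molecular identifiers. The authors trimmed the reads (Trim Galore 0.4.3), aligned them to mm10 with Rsubread and counted uniquely mapped reads with featureCounts (GENCODE annotation, mouse release 16), and these raw counts were deposited. The counting precision therefore does not equal that of independent molecules. Strand use in counting is not given in the sources used here. The 11 bisulfite samples were not used here.

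After removal of 105 rows without a gene symbol, filterByExpr (minimum count 10, total 15) kept 40714. Counts were normalized by TMM, and edgeR 4.0.16 (R 4.3.3, quasi-likelihood, legacy=TRUE) was fitted to 4 group means over all libraries, so that sham glia with 2 libraries shared the spread of the other groups. The study fitted each cell type separately, which is an alternative here, but its filters kept fewer genes than these fits. The threshold was the study's, a Benjamini-Hochberg FDR below 0.25. Residual degrees of freedom were 7, prior ones 6.76, and the common biological coefficient of variation 0.600. The SE is the log2 fold change divided by the square root of F. CPM use TMM factors, and lengths are exon unions of GENCODE M21. Cell type and treatment were taken from the sample labels.

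The NeuN+ and NeuN– nuclei of a number share a pool, which pairs the fractions (correlations of their deviations 0.240 to 0.668). Kainate and sham samples of a number came from different mice. They were paired because same-numbered libraries deviated together in these data (correlations 0.161 to 0.643 between neurons, 0.760 and 0.787 between glia). Libraries of different numbers were not compared in this way. Blocked fits used the number within each cell type, or the pool for comparisons of fractions. They had 3 residual degrees of freedom and 48.0 and 7.74 prior degrees of freedom, so their small p-values rest on a spread shared over genes. Pooled samples within a treatment were separate pools of mice.

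The members and lists were chosen with earlier results of these data known. Named besides the members were called genes of each list (at most 4 per comparison, by smallest p; the 2 with the smallest p in neurons where none was called) and the 3 genes most correlated with each member; Plk5, Homer2, Homer3, the markers given with values, Gad1 and Fars2 were picked with their values in view. The fits with and without the block were tested on simulated neuron data. Alternatives were DESeq2's size factors and Wald test (1.42.0), other filters and gene sets, other quasi-likelihood settings, FDR below 0.05, low RNA input as a covariate, leaving out libraries, and separate fits per cell type; leaving out the libraries numbered 1 was added after the data were seen.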

Additional observations from a re-analysis of the deposited data

Results flagged for a closer look

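For 2 members the kainate effect was called different between neurons and glia when the replicate number within each cell type was held as a block. The difference on the log2 scale was 1.55 for Rgs2 (SE 0.36, FDR = 0.013 in edgeR), with ratios of kainate to sham above 1 in 3 of 3 neuron pairs and in 1 of 2 glia pairs. For Pcsk1 it was 1.44 (SE 0.36, FDR = 0.031), with the same numbers of pairs. Without the block neither passed (1.81 and 0.97), and the range over 24 other settings was 0.58 to 2.43 for Rgs2 and 0.43 to 1.87 for Pcsk1. The test of glia with the block uses 2 pairs, 1 of which includes sham glia replicate 1 of low RNA input, and the part of that library was not tested beyond the values without it. The replicate block treated neuron and glia libraries of a pool as independent. The interaction was not tested with the pool as a block. For Pcsk1 the pool block gave NeuN+ against NeuN– log2 fold changes of 2.01 (SE 0.75) in sham and 3.06 (SE 0.61) in kainate mice. For Rgs2 they were -0.083 (SE 0.25) and 1.55 (SE 0.20).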

How the results depend on the processing

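Of the values of single members under other settings, 762 kept their direction and side of the threshold, 41 newly passed, 22 no longer passed and 29 changed sign. The cause of these changes was not tested. In neurons, 2 members were called, and 5 with DESeq2's Wald test, 4 among genes with an NCBI Gene ID, 0 at FDR below 0.05, 1 with low input as a covariate, 5 in a separate fit per cell type (the study's design), 7 with the replicate block, 7 without the 4 libraries numbered 1, and 0 to 3 with 1 library left out. The calls over all genes moved too, from 64 of 40714 higher to 292 with the Wald test, 185 of 21406 among genes with an NCBI Gene ID, 8 at FDR below 0.05, 40 with the covariate and 324 of 30259 in the separate fit. In glia, 0 were called, and 2 with the Wald test, 5 with the replicate block, 3 without the libraries numbered 1 and 0 to 1 with 1 library left out, the 1 being called without sham glia replicate 3, where 2359 of 42640 genes were called higher. The interaction called 0, and 2 with the replicate block. Between fractions in sham mice 5 were called, 3 at FDR below 0.05, and 3 to 6 with 1 library left out, the 6 including Nedd9, called lower. The 6 called after kainate were 5 or 6 in every other setting.

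Values that changed sign were small or rested on few libraries. For Rgs2 in glia the log2 fold change was 0.028 with the covariate for RNA input, 1.03 once both low-input libraries were left out, 0.14 with the replicate block, 0.62 without the libraries numbered 1, and -0.82 to 0.88 with 1 library left out. For Rgs2 between fractions in sham mice it was 0.084 with that covariate, 0.84 without the low-input libraries, 0.46 without those numbered 1 and -0.87 to 0.84 with 1 library left out. For Pcsk1 in glia it was -0.035 to 0.71 with 1 library left out. The interaction of Nrn1 was -0.12 without both low-input libraries and -0.097 to 1.21 with 1 library left out, and that of Plk2 -0.45 to 0.27. For Nedd9 between fractions after kainate it was -0.0093 with DESeq2's size factors, -0.0091 with the Wald test, -0.011 without a filter, -0.12 with a minimum CPM of 1 in 3 libraries, -0.073 among genes with an NCBI Gene ID, -0.038 with the covariate, -9.9e-04 with the replicate block and -0.23 to 0.13 with 1 library left out.

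With 2 sham glia libraries, leaving 1 out assumes that the other varies like the remaining groups. Each member had at least 69 counts in every library, and without molecular identifiers the number of molecules behind them is not known.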
